A study of Mus musculus with 12 samples.

Results

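The comparison described here sets B16F10 cells grown in medium from tumour-conditioned macrophages against the same cells grown in medium from interferon-treated macrophages. It uses 6 of the 12 libraries of the study, 3 for each medium, chosen by their treatment labels, and all genes with enough counts in those 6 libraries. B16F10 is a pigmented mouse melanoma line, here with the genotype WT. Bone-marrow-derived macrophages (BMDM) were first treated for 24 h, with 20 ng/ml of a cytokine that the submitters write INF-γ (read here as interferon gamma) for the M1 medium, or with 75% B16F10 conditioned medium for the TAM medium (labelled B16F10-BMDM). The medium of each macrophage culture was then put on B16F10 cells for another 24 h, and the RNA of the B16F10 cells was sequenced. The other 6 libraries received medium of macrophages kept in DMEM (M0) or given 20 ng/ml IL-4 (M2), and serve only as background levels. No source states that macrophages were washed free of the cytokine or tumour medium before collection, so carried-over agent and macrophage products cannot be told apart. Nor does any source state that replicates were separate cultures, so the p-values measure the spread between libraries and this spread may be technical.

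Interferon gamma signals through its receptor, the kinases Jak1 and Jak2 and STAT factors, which with Irf1 switch on GTPases that attack intracellular microbes, antiviral proteins and the machinery that shows peptides to T cells. In melanoma cells this programme also raises the checkpoint ligand Cd274 (PD-L1). The integrated stress response, another programme described below, runs through the translation factor eIF2 and Atf4, which raises genes for amino acid uptake and synthesis. The SREBP factors set the rate of sterol and fatty acid synthesis.

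Library totals lay between 17266441 and 20075551 counts, and the scale factors between libraries lay between 0.9946 and 1.0048. Correlations of log2 levels were 0.9928 to 0.9940 within a group and 0.8975 to 0.9030 between the groups. The 7 melanoma markers were all tested and summed to 13750 to 14250 CPM (counts scaled to a common library total) in M1 libraries and 14400 to 15240 CPM in TAM libraries. Of 23 macrophage markers, 10 were at 0 in all 6 libraries, among them Ptprc, Adgre1 and Itgam, and the list summed to 6.66 to 7.23 CPM in M1 and 3.94 to 5.03 CPM in TAM. Just 3 of them had enough counts to test, and 1 of these, Cd68, was called higher in M1. Cd68 had 254 counts over the M1 group and 89 over the TAM group. The macrophage polarisation markers summed to 1.32 to 1.80 CPM and 0.105 to 0.352 CPM, neutrophil markers to at most 0.402 CPM and lymphocyte markers to at most 0.753 CPM. Of the polarisation markers just Nos2 was tested, and it was called higher in M1, with 80 counts over the M1 group and 2 over the TAM group. The 12 fibroblast and endothelial markers summed to 34.9 to 43.9 CPM in M1 and 39.6 to 42.9 CPM in TAM. The share of counts on ribosomal protein genes was 3.66% to 3.69% in M1 and 3.97% to 4.27% in TAM, and the mean exon length of the genes counted, weighted by their counts, was 5844 to 5856 bp in M1 and 6009 to 6091 bp in TAM. The part of these differences in the results below was not tested. In bulk RNA, a change in the number of cells of a kind and a change of RNA per cell cannot be told apart.

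Most of the transcriptome differed between the media. Of 14077 genes tested with edgeR's quasi-likelihood test, 10301 (73.2%) had a Benjamini-Hochberg adjusted p under 0.05, 5126 of them higher in TAM (36.4%) and 5175 higher in M1 (36.8%). The libraries of a group were very alike (biological coefficient of variation 4.14%), so small differences passed, and the size of a difference tells more than the call. At 2-fold or more, 2833 genes (20.1%) were called, 1240 higher in TAM (8.81%) and 1593 higher in M1 (11.3%). The balance shifted with size: 334 genes were at least 4-fold higher in TAM and 544 in M1, 114 and 318 were at least 8-fold higher, and 32 and 170 at least 32-fold. Genes at least 2-fold higher in M1 took 13.8% of scaled counts in M1 libraries and 3.13% in TAM libraries. Genes at least 2-fold higher in TAM took 3.69% in M1 and 11.1% in TAM. Long noncoding genes numbered 214 of the 1240 and 131 of the 1593, beside 887 of the 11244 genes in neither class. The median log2 change over all genes tested was 0.000766, with quartiles of -0.49 and 0.44. Log2 changes are of TAM over M1 throughout, so that a negative value means a higher level in M1. A number in parentheses after a gene, or after "rose by", is its log2 change, with its SE after ± where given, and levels written as a mean ± SD are over the 3 libraries of a group, M1 before TAM.

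**Figure D1:**
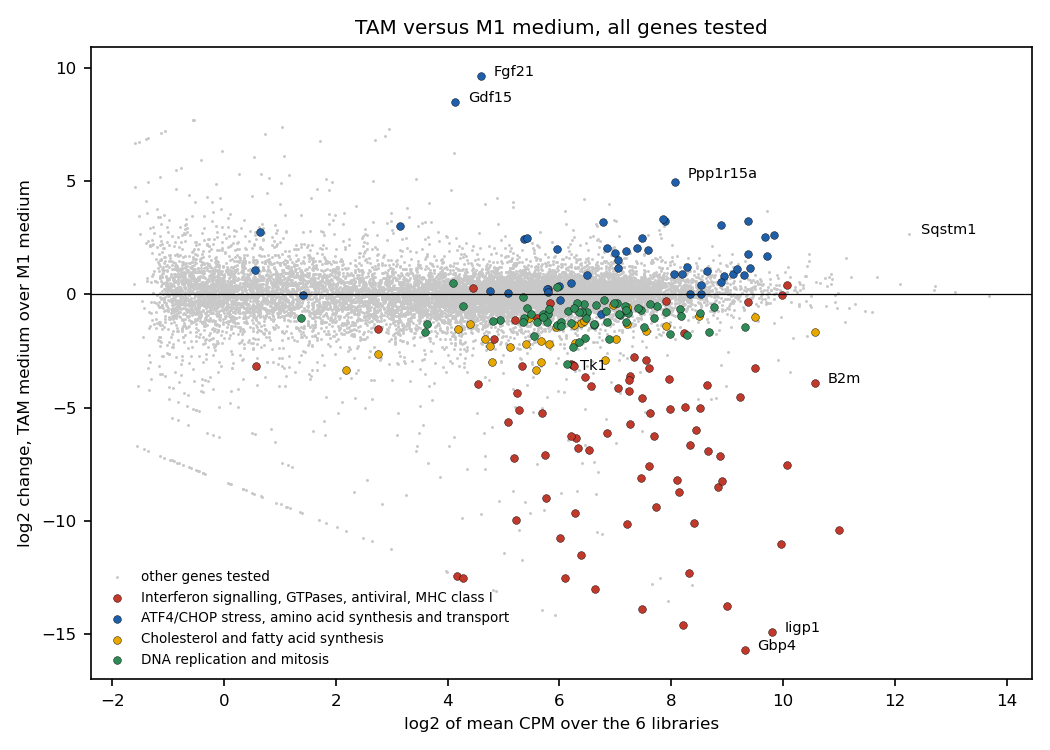
Each point is 1 of the 14077 genes tested, with the log2 of its mean CPM over the 6 libraries on the x axis and the log2 change (TAM medium over M1 medium) on the y axis. Interferon-related genes (red) reach far below 0 at low and high expression, while the stress and amino acid genes (blue) lie mostly above 0 and the sterol, fatty acid, replication and mitosis genes (yellow and green) mostly below it.

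The largest differences lay in the interferon programme, which was high in M1 and low in TAM. All 10 guanylate-binding proteins tested (of 11 listed), all 7 immunity-related GTPases and all 25 antiviral effectors and nucleic acid sensors were called and at least 2-fold higher in M1, as against 11.3% of all genes. Their median log2 changes were -10.96, -11.03 and -5.06. With the 5 guanylate-binding proteins that had 3 counts or fewer over the TAM group set at their counted ratio or bound, that list's median was -10.28. The 3 lists took 0.779% to 0.811%, 0.895% to 0.941% and 0.775% to 0.842% of all counts in M1 libraries, and 0.000732% to 0.000749%, 0.00130% to 0.00201% and 0.0307% to 0.0317% in TAM libraries. These gene families hold close relatives, and reads shared between relatives could have been divided or dropped by a counter that the sources do not describe, so the values of single Gbp, Tgtp, Irgm and Ifit genes are uncertain.

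The promoters of 3 of these genes are shown because they are the members with the smallest adjusted p whose window holds an interferon-stimulated response element, the sequence that interferon regulatory factors and the STAT complex of type I interferon bind. The windows are from RefSeq (GRCm38.p6) and run from 250 bases before the start site to 50 after it. Capitals mark the match to GAAANNGAAA on either strand, which starts at position -59 in Gbp2, at -70 in Tgtp2, and at -45 and again, overlapping, at -39 in Gbp3. Gbp2 lies at chr3:142620413-142620712 on the forward strand, Tgtp2 at chr11:49064163-49064462 on the reverse strand and Gbp3 at chr3:142559794-142560093 on the forward strand.
Gbp2: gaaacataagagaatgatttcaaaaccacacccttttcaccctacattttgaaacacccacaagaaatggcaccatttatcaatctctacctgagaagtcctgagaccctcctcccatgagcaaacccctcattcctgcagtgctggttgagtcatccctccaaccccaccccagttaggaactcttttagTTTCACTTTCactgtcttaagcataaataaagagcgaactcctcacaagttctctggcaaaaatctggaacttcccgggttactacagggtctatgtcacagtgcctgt
Tgtp2: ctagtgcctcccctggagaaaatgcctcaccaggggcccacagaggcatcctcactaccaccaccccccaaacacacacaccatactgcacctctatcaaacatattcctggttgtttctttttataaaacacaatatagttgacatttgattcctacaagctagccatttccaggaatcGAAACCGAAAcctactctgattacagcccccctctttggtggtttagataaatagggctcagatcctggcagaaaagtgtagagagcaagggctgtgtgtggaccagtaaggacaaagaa
Gbp3: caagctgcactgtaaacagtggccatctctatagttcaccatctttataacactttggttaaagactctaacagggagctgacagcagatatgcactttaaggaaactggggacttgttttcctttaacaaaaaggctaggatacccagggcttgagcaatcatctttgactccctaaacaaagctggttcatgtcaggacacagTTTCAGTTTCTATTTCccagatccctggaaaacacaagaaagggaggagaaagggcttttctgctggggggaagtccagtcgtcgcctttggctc

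Gbp2 (chr3:142620602-142638008), a GTPase that breaks open pathogen vacuoles, had the largest difference in level of all genes called higher in M1. It stood at 4206, 4107 and 3931 CPM in the 3 M1 libraries and at 2.83, 2.71 and 3.47 CPM in the 3 TAM libraries. Every M1 library lay far above every TAM library, with a log2 change of -10.40 ± 0.07 (SE, adjusted p = 6.0e-74). Gbp4 (chr5:105115767-105139586) had 71816 counts over the M1 group and 1 over the TAM group, a ratio of 75100 whose 95% counting interval ran from 13500 to 2970000. Iigp1, an immunity-related GTPase of the same defence, had 100594 counts against 3, a ratio of 35100 with an interval of 12000 to 170000. Irgm1 (chr11:48861968-48871683), which regulates the other immunity-related GTPases, kept a trace in TAM, at 9.48, 11.5 and 13.8 CPM against 2206, 2121 and 2110 CPM in M1. Igtp (chr11:58199556-58207591) read 1974, 2033 and 1987 CPM in M1 and 0.367, 0.953 and 1.51 CPM in TAM. It overlaps Irgm2 on the same strand, so the reads of these neighbours cannot be told apart where they overlap. Tgtp2 was at 1028 ± 53 CPM in M1 and 0.0677 ± 0.0285 CPM in TAM (mean ± SD, n = 3 each), and Gbp3 at 913 ± 20.5 and 2.51 ± 0.306 CPM. Each of these genes was higher in each M1 library than in each TAM library.

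Zbp1 (chr2:173206612-173218923), a sensor of Z-form nucleic acids that can start necroptosis, fell from 638 ± 10.1 CPM in M1 to 0.118 ± 0.115 CPM in TAM. Not all antiviral genes were near 0 in TAM. Isg15 (chr4:156199424-156200818), a ubiquitin-like modifier, stood at 479.8, 497 and 492 CPM in M1 and 16, 15.1 and 12.9 CPM in TAM (log2 change -5.06 ± 0.06). Ifit2 (chr19:34550694-34576419), which binds foreign RNA, stood at 748 ± 24.6 CPM and 47.3 ± 2.16 CPM, a difference of -3.98. The changes of this list ran from -12.31 for Zbp1 to -1.52 for Oasl1, an OAS-like protein that restrains interferon production.

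Most genes of the signalling machinery itself were higher in M1. Of 19 genes for the receptor, kinases, STAT and IRF factors and their inhibitors, 17 were called higher in M1 and 2 higher in TAM, with 15 at least 2-fold higher in M1 and none in TAM, and a median of -3.15. The genes called higher in TAM were Ifngr1, the ligand-binding receptor chain, at 19.7 ± 0.7 CPM in M1 and 23.9 ± 2.15 CPM in TAM (0.28 ± 0.08, adjusted p = 0.0023), and Ptpn2, a phosphatase that switches off JAK and STAT proteins (0.26). Ifngr1 lost its call when all 12 libraries were fitted together (adjusted p = 0.059). The other receptor chain Ifngr2 (-0.36) and Jak1 (-0.28) differed by less than 2-fold, in the other direction.

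Irf1 (chr11:53770014-53778374), an early target of the pathway and itself an activator, stood at 689, 685 and 683 CPM in M1 and 10.6, 10.5 and 11.1 CPM in TAM. The groups were separated without overlap, by -6.0 ± 0.05 (adjusted p = 1.0e-66) on the log2 scale. Stat2, which joins the complex of type I interferon, had a log2 change of -4.58, and Nlrc5 (chr8:94434356-94527272), the activator of MHC class I genes, stood at 386 ± 8.38 CPM and 1.99 ± 0.256 CPM. Irf8, an IRF best known from myeloid cells, was at 74.8 ± 2.86 CPM in M1 and 0.0677 ± 0.0283 CPM in TAM. Unlike Ptpn2, other brakes of the pathway were higher in M1. Socs1, which blocks JAK kinases, had a log2 change of -5.63, and Usp18, which removes Isg15 from proteins, of -5.11.

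Chemokines and cytokines were mixed. Of 25 listed, 15 were tested, with 10 called and at least 2-fold higher in M1, 4 called higher in TAM (3 of them at least 2-fold) and Cxcl2 not called. The chemokines that draw T cells through Cxcr3 led the M1 side. Cxcl9 (chr5:92321347-92328079) varied within M1, at 377, 471 and 363 CPM, and had 3 counts in TAM, all in replicate 3, against 22588. That ratio was 7872, with a 95% counting interval of 2693 to 38200 and an adjusted p of 4.8e-06. Cxcl10 (chr5:92346638-92348889) stood at 2022, 2075 and 2048 CPM in M1 and remained at 182, 194 and 191 CPM in TAM (-3.44 ± 0.04, adjusted p = 1.2e-59). Ccl5 (chr11:83525778-83530518), which draws T cells and monocytes, stood at 112, 110.0 and 108 CPM and 15.8, 14.5 and 16.6 CPM, and Csf1, the macrophage growth factor, at 132 ± 7.64 CPM and 55 ± 2.64 CPM. On the TAM side stood the IL-6 family cytokines Lif (chr11:4257557-4272514), at 4.41, 2.38 and 4.28 CPM in M1 and 19.7, 19.6 and 22 CPM in TAM, and Il11 (chr7:4772373-4782859), at 0.472, 0.407 and 0.348 CPM and 4.76, 4.81 and 4.73 CPM. The log2 changes of Lif and Il11 were 2.45 ± 0.13 (adjusted p = 7.1e-22) and 3.52 ± 0.28 (adjusted p = 1.0e-17), with no overlap between the groups.

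Transcripts of most antigen presentation genes were lower in TAM than in M1. Of 20 genes of MHC class I and peptide loading tested, 18 were called higher in M1, 17 by at least 2-fold, with a median of -4.10. B2m (chr2:122147686-122153083), the invariant light chain, stood at 2772, 2942 and 2814 CPM in M1 and 191, 189 and 186 CPM in TAM (-3.92 ± 0.04, adjusted p = 2.5e-62). Per kilobase of exon its level in M1 was 3305 CPM per kb, above the 1622 CPM per kb of Gbp2, which had the higher CPM. The heavy chain genes H2-K1 and H2-D1 differed by -4.53 and -3.27, with the caution that reads of H2 genes can be shared. Tap1 (chr17:34187553-34197225), a chain of the peptide pump, stood at 538, 566 and 532 CPM and 1.47, 2.0 and 2.01 CPM. Psmb8 (chr17:34197721-34201454) and Psmb9 (chr17:34181987-34187764), catalytic subunits of the immunoproteasome, had 2195 counts in M1 against 0 in TAM (at least 765-fold higher in M1, from a floor of 3 counts over the group) and 11134 against 1. The general chaperone Canx went the other way, by less than 2-fold (0.43, adjusted p = 4.1e-15), and Calr was not called (-0.04).

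Of 11 class II genes tested, 9 were called higher in M1 (8 by at least 2-fold) and Rfxank, a subunit of the constitutive promoter complex, was called higher in TAM (0.65). Ciita (chr16:10480059-10528418), the master activator of class II genes, stood at 20.8, 28.1 and 25.8 CPM in M1 and 0.105, 0.1 and 0.201 CPM in TAM (-7.45 ± 0.22, adjusted p = 7.7e-37). Cd74, the invariant chain, stood at 70.7, 74.9 and 73.7 CPM and 11.7, 12.8 and 12.1 CPM, so that it remained well above 0 in TAM although Ciita was near 0. H2-Aa had 246 counts in M1 and 1 in TAM.

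Of 9 checkpoint and suppression genes tested (of 17 listed), 5 were called and at least 2-fold higher in M1 and 3 higher in TAM. Cd274 (chr19:29367455-29388095) stood at 129, 126 and 129 CPM in M1 and 7.75, 5.77 and 6.14 CPM in TAM, separated by -4.29 ± 0.07 (adjusted p = 4.9e-52). Lgals9, a ligand of Tim-3, and Cd47, which restrains phagocytosis, were also higher in M1 (-5.07 and -2.16). Pvr (chr7:19903578-19921160), the ligand of Tigit and Cd226, was higher in TAM, at 71, 69.5 and 68.4 CPM in M1 and 170.1, 169.8 and 172 CPM in TAM (1.29 ± 0.04, adjusted p = 3.7e-35), and its relative Nectin2 by 0.58.

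Death genes divided by route. Of 19 tested, 11 were called higher in M1 and 4 higher in TAM, 7 and 3 of them by at least 2-fold. The executors of necroptosis and pyroptosis were higher in M1: Mlkl (chr8:111311797-111338177) stood at 310.5 ± 4.25 CPM against 62.4 ± 0.518 CPM, Casp4 at 47.4 ± 1.88 against 6.0 ± 0.503 CPM, and Gsdmd differed by -2.45. Casp12 had 2213 counts in M1 and 0 in TAM. Bax, a pore-former of the mitochondrial route (1.26), Bcl2, which restrains that route (1.36), and the death receptor Tnfrsf10b (1.28) were higher in TAM. Of 13 NF-kB genes tested, 8 were called higher in M1 and 5 in TAM, with a median of -0.32. The targets and inhibitors Tnfaip3 (-1.91), Birc3 (-1.66) and Nfkbie (-1.12) were higher in M1, and Tnfaip2 (chr12:111442469-111455018), at 149.6, 122 and 149 CPM in M1 and 316, 326 and 309.9 CPM in TAM, was the listed gene at least 2-fold higher in TAM.

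**Figure D2:**
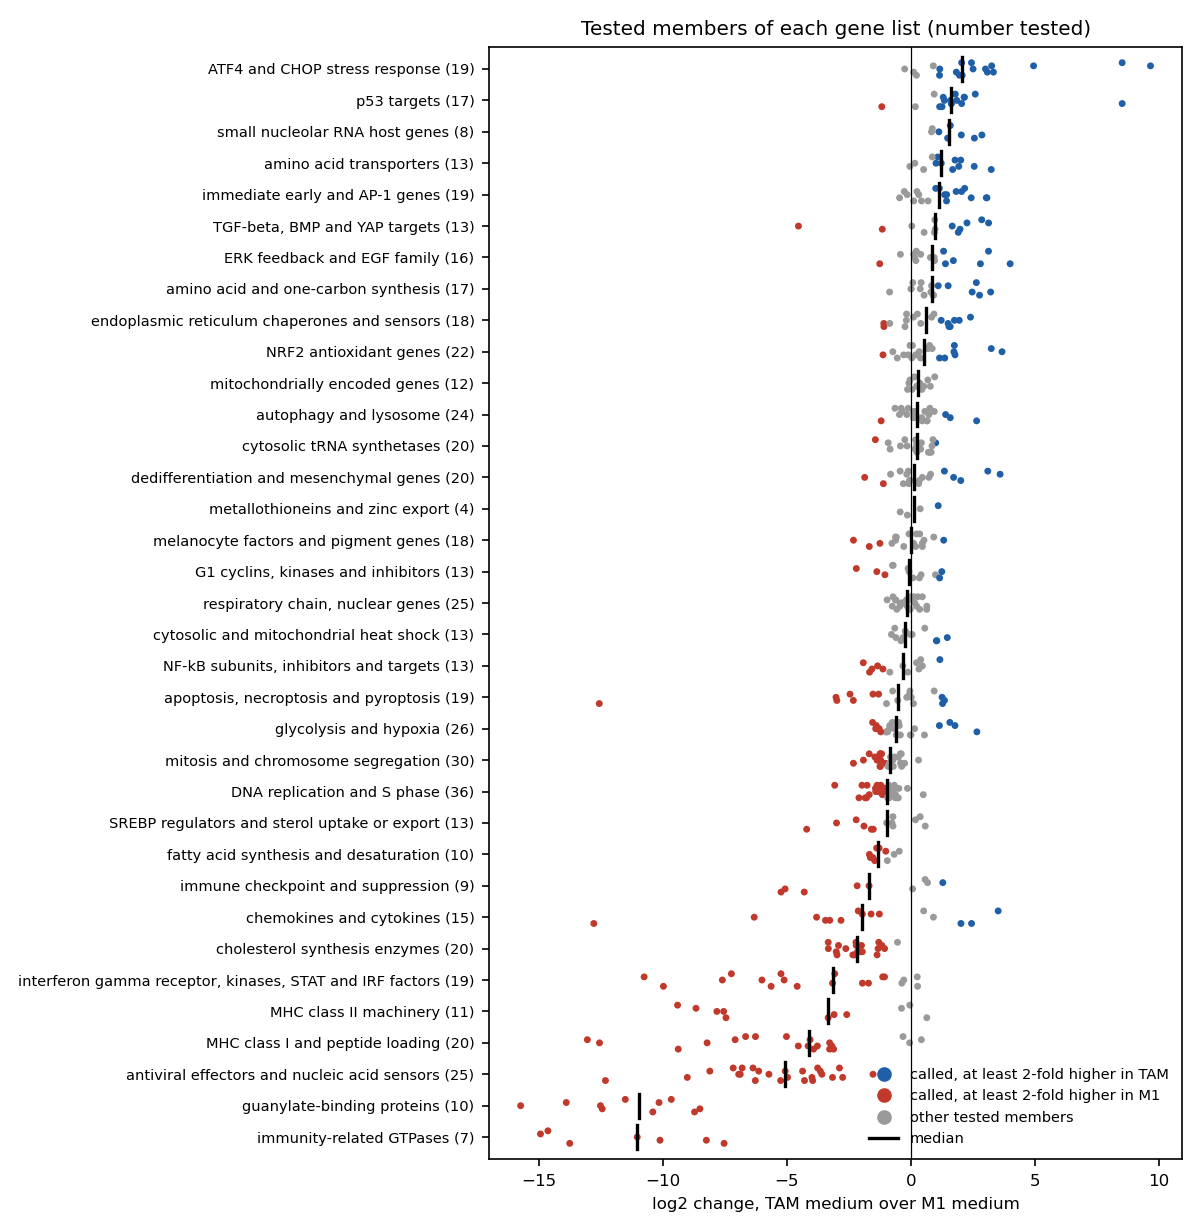
Each point is a tested member of 1 of the 35 gene lists, placed by its log2 change (TAM medium over M1 medium), and black bars mark list medians. Lists are ordered by median, from the ATF4 and CHOP stress response at 2.08 to the immunity-related GTPases at -11.03.

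On the TAM side the integrated stress response stood out. Of 19 genes of the ATF4 and CHOP response tested, 17 were called higher in TAM, 15 by at least 2-fold (8.81% of all genes), with a median of 2.08. Their share of all counts was 0.124% to 0.148% in M1 libraries and 0.518% to 0.538% in TAM libraries. Eif2ak1, the haem-regulated eIF2 kinase, was the member called higher in M1 (-0.24), and the kinase genes Eif2ak3 (0.23) and Eif2ak4 (0.12, not called) differed little. The promoters of the 3 members with the smallest adjusted p whose window holds an ATF4 amino acid response element are shown. Capitals mark the match to TGATGNAA on either strand, which starts at position -139 in Fgf21 (chr7:45615441-45615740, reverse strand), at -193 in Chac1 (chr2:119350992-119351291, forward strand) and at -110 in Atf3 (chr1:191183284-191183583, reverse strand). All 3 windows hold the same 8 letters on the strand opposite to the gene.
Fgf21: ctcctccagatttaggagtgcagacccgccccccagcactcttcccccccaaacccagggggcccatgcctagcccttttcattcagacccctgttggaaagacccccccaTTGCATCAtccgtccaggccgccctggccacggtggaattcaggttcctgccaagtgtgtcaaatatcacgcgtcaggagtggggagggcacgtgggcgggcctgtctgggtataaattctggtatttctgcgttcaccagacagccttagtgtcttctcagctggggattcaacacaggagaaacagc
Chac1: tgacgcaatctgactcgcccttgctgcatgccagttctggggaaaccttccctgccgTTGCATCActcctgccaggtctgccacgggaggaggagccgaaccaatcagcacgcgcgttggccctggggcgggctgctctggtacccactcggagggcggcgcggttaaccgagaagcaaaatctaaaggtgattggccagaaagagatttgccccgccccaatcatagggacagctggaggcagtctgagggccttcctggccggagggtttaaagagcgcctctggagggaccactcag
Atf3: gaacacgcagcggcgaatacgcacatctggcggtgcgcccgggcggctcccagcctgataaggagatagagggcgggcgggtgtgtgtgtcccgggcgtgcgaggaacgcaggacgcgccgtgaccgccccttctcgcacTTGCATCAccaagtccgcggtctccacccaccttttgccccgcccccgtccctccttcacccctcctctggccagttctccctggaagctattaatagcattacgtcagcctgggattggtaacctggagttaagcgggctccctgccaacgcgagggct

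Fgf21 (chr7:45613886-45615490), a secreted stress hormone, had the largest fitted rise among called genes that averaged at least 1 CPM, predicted genes and pseudogenes aside. It had 3 counts over the M1 group and 50.5, 48.1 and 47.1 CPM in the TAM libraries, a ratio of 912 with a 95% counting interval of 312 to 4426 (adjusted p = 9.4e-45). Gdf15 (chr8:70629393-70632456), another secreted stress hormone and also a p53 target, stood at 0.21, 0.0581 and 0 CPM in M1 and 33, 36.9 and 35.4 CPM in TAM (8.53 ± 0.21, adjusted p = 3.4e-41). Ppp1r15a (chr7:45522916-45526268), which leads the phosphatase that ends eIF2 phosphorylation, stood at 18.4, 15.8 and 16.3 CPM and 527, 529.8 and 508 CPM (4.95 ± 0.05, adjusted p = 8.1e-63). In these genes every TAM library lay far above every M1 library. Atf4 itself rose by 1.16, its partner gene Ddit3 (CHOP) by 1.84, and Atf3 by 1.17. Chac1 (chr2:119351229-119354381), which degrades glutathione, stood at 52.9 ± 4.92 CPM in M1 and 302 ± 9.11 CPM in TAM. Trib3, a pseudokinase that restrains Atf4, varied more within M1, at 118, 73.5 and 106 CPM, than within TAM, at 839, 867 and 833 CPM.

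Amino acid supply genes moved the same way. Of 13 transporter genes, 12 were called higher in TAM and 9 by at least 2-fold (median 1.23), and of 17 genes of amino acid and one-carbon synthesis, 13 were called higher in TAM and 6 by at least 2-fold (median 0.84). Slc7a11 (chr3:49892526-50443614), the cystine importer, stood at 153, 91.8 and 135 CPM in M1 and 1265, 1116 and 1234 CPM in TAM (3.25 ± 0.22, adjusted p = 1.4e-04). M1 replicate 2 was the lowest library for Slc7a11, as it was for Trib3. Slc3a2 (chr19:8706882-8723369), the chain it pairs with, stood at 237 ± 19.1 CPM and 1400 ± 25.4 CPM, and Slc7a1 (chr5:148327410-148399904), an arginine and lysine importer, at 299 ± 7.89 CPM and 1032 ± 18.8 CPM. Cth (chr3:157894248-157925077), which makes cysteine from cystathionine, stood at 21.7, 19.9 and 22.2 CPM and 194, 199 and 204 CPM (3.22 ± 0.05, adjusted p = 1.3e-52). Cbs, the enzyme before it, rose by 2.77 but from a low level, 0.397 ± 0.174 CPM to 2.71 ± 0.373 CPM when scaled over 12 libraries. Mthfd1, of the cytosolic folate cycle, was the member called higher in M1 (-0.85). The 20 cytosolic tRNA synthetases were all called, 14 higher in TAM and 6 higher in M1, but just Eprs reached 2-fold in TAM (1.01) and Kars in M1 (-1.43).

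Endoplasmic reticulum genes were split. Of 18 tested, 11 were called higher in TAM (7 by at least 2-fold) and 6 higher in M1 (2 by at least 2-fold). Hspa5 (chr2:34771970-34777547), the main chaperone of this compartment, stood at 1054, 1207 and 1069 CPM in M1 and 3363, 3305 and 3355 CPM in TAM. Herpud1, which helps degrade misfolded proteins (2.41), and the sensors Ern1 (1.76) and Atf6 (1.51) were higher in TAM, while Pdia4, a disulfide isomerase (-1.09), Sdf2l1 (-1.08) and Edem1 (-0.85) were higher in M1. Of 13 heat shock genes tested, 4 were called higher in TAM and 7 in M1. The mitochondrial chaperone Hspa9 rose by 1.47, whereas the cytosolic Hsp90ab1 (chr17:45567775-45573271), at 3915 ± 27.6 CPM in M1 and 2283 ± 34.4 CPM in TAM, fell by 0.78 on the log2 scale.

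Targets of p53 were higher in TAM: 16 of 17 tested were called in that direction and 14 by at least 2-fold, with a median of 1.63. Mdm2 (chr10:117688875-117710758), which degrades p53, stood at 121, 131 and 126 CPM in M1 and 382, 389 and 403 CPM in TAM (1.63 ± 0.04, adjusted p = 4.1e-42). Cdkn1a (chr17:29090976-29100727), the cell cycle inhibitor p21, stood at 216, 218 and 216 CPM and 476, 512 and 469 CPM (1.17 ± 0.04). Trp53inp1 (2.60) and Zmat3 (1.86) rose too, and Sesn1 was the member called higher in M1 (-1.17). Gdf15 and Sesn2 belong to both the p53 and the ATF4 lists, and Bax and Bbc3 to both the p53 and the death lists.

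Of 22 NRF2 antioxidant genes, 14 were called higher in TAM and 7 by at least 2-fold. Hmox1 (chr8:75093621-75100589), the enzyme that degrades haem, stood at 135, 105 and 122 CPM in M1 and 1569, 1540 and 1532 CPM in TAM (3.68 ± 0.07, adjusted p = 3.1e-13). Txnrd1, the thioredoxin reductase, stood at 637 ± 54.7 and 2196 ± 44.4 CPM, and Gclc, which limits glutathione synthesis, at 83.3 ± 5.10 and 282 ± 12.2 CPM. The mRNA of Nfe2l2, which encodes NRF2, was not called (0.04), that of its inhibitor Keap1 was lower in TAM (-1.12), and thioredoxin itself, Txn1, was lower too (-0.72). Sqstm1 (chr11:50199366-50210827), an autophagy receptor that also binds Keap1, had the largest rise in absolute level of all genes, from 1375, 1287 and 1341 CPM in M1 to 8559, 8340 and 8339 CPM in TAM (2.66 ± 0.04, adjusted p = 8.3e-55). The other 23 autophagy and lysosome genes were more even: over the whole list 15 of 24 were called higher in TAM and 6 higher in M1, with a median of 0.25. Ctsl, a lysosomal protease, rose by 1.59, and Tfeb, a regulator of lysosomal genes, was lower in TAM (-1.19).

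Transcripts of sterol synthesis enzymes were lower in TAM throughout the pathway. All 20 cholesterol synthesis enzymes were called higher in M1 and 19 by at least 2-fold, with a median of -2.17, and their share of all counts was 0.185% to 0.190% in M1 libraries and 0.0560% to 0.0572% in TAM libraries. The exception to the 2-fold mark was Sqle (-0.53), the epoxidase that limits the later steps. Idi1 (chr13:8885501-8892451), the isoprenoid isomerase, stood at 49.7, 52.7 and 46.4 CPM in M1 and 6.49, 6.67 and 5.38 CPM in TAM (-3.0 ± 0.09, adjusted p = 1.8e-38). Cyp51 (chr5:4081145-4104746), which demethylates lanosterol, stood at 202, 216 and 200.4 CPM and 50.4, 54.3 and 54.7 CPM (-1.95 ± 0.05, adjusted p = 1.5e-43). The groups were apart in both genes. The promoter of Hmgcs1, which makes HMG-CoA, is shown because it was the sole window among the 29 available for called sterol and fatty acid genes with the sterol regulatory element TCACCCCAC on either strand. The match, in capitals, starts at position -137 of the window at chr13:119690101-119690400 (forward strand).
Hmgcs1: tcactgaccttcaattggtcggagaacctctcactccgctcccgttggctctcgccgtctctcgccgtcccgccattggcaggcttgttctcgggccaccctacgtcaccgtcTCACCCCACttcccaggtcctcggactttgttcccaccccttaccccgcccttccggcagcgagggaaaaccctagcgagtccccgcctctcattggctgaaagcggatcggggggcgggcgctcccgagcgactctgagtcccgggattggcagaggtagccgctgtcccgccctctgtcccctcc

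Hmgcs1 stood at 128, 125 and 125 CPM in M1 and 28.4, 27.4 and 29.7 CPM in TAM (-2.14 ± 0.05, adjusted p = 1.6e-42). Of 13 SREBP regulators and genes of sterol uptake or export tested, 10 were called higher in M1, 6 by at least 2-fold, and 3 higher in TAM. The genes of the factors themselves, Srebf2 (chr15:82147181-82205379) and Srebf1 (chr11:60199089-60222581), were lower in TAM by -1.89 and -1.51, and their retention protein Insig1 by -2.20. In the other direction, and by less than 2-fold, went the cholesterol exporter Abca1 (0.59), Insig2 (0.38) and Npc1 (0.19), which moves cholesterol out of lysosomes. All 10 fatty acid synthesis genes were called higher in M1, 7 by at least 2-fold. The desaturase Scd2 (chr19:44293674-44306864), the most abundant of them, stood at 2351, 2306 and 2294 CPM in M1 and 735, 734 and 720.1 CPM in TAM.

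**Figure D3:**
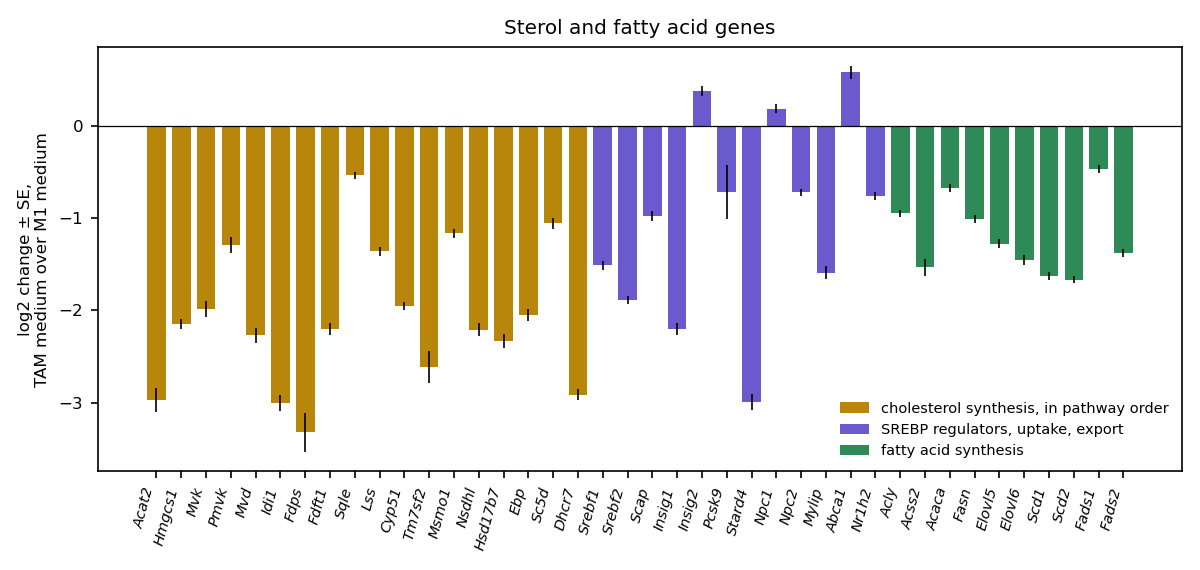
Bars give the log2 change (TAM medium over M1 medium) of tested genes with its SE, for cholesterol synthesis enzymes in pathway order, SREBP regulators with uptake and export genes, and fatty acid synthesis genes. Bars reach below 0 for all enzymes shown and rise above 0 for Insig2, Npc1 and Abca1.

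Proliferation genes were lower in TAM. Of 36 DNA replication and S phase genes, 34 were called higher in M1, 17 by at least 2-fold (median -0.96), and of 30 mitosis genes, 29 were called higher in M1, 13 by at least 2-fold (median -0.84). Tk1 (chr11:117815526-117826092), the thymidine kinase of S phase, stood at 120.3, 129 and 129 CPM in M1 and 15.1, 15.2 and 14.9 CPM in TAM (-3.06 ± 0.06, adjusted p = 3.1e-48). Mcm6, a subunit of the replicative helicase, stood at 387 ± 7.93 CPM and 114 ± 1.48 CPM. Aurkb (chr11:69045647-69051664), a mitotic kinase, stood at 119.7, 128 and 130.1 CPM and 25.2, 25.8 and 25.2 CPM (-2.31 ± 0.06, adjusted p = 1.4e-43), and Mki67, the proliferation marker, at 622 ± 33 CPM and 195 ± 12.3 CPM. Differences within the lists were wide, since Pcna differed by -0.66 and Ccnb1 by -0.36. Ccne2, the cyclin of S phase entry (0.50), and Ndc80, of the outer kinetochore (0.31), were called higher in TAM. Of 13 G1 genes tested, 5 were called higher in TAM and 6 in M1. Among cyclin D genes Ccnd2 was higher in TAM (1.0) and Ccnd3 lower (-1.37), and among inhibitors Cdkn1a was higher and Cdkn2c (p18) lower (-2.19).

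Melanocyte genes did not move together. Of 18 tested (of 21 listed), 9 were called higher in TAM and 8 higher in M1, with a median of 0.02. The master regulator Mitf (chr6:97807052-98021349) stood at 311, 415 and 333 CPM in M1 and 108, 114 and 110.2 CPM in TAM, with most of the spread in M1 replicate 2, and was lower in TAM by -1.67 ± 0.13 (adjusted p = 2.6e-04). Mc1r (chr8:123407107-123410744), the receptor for melanocyte-stimulating hormone, stood at 177, 170.5 and 181 CPM and 31.5, 38.1 and 36.9 CPM (-2.31 ± 0.05). Pax3 (chr1:78101267-78197134), a neural crest factor, went the other way, from 148, 156 and 146 CPM in M1 to 375, 377 and 378 CPM in TAM (1.33 ± 0.04, adjusted p = 6.7e-38). The pigment genes moved little: the enzymes Tyr (0.23), Tyrp1 (0.20) and Dct (0.47) were slightly higher in TAM, and the melanosome proteins Pmel (-0.61) and Mlana (-0.58), with the lineage factor Sox10 (-0.76), lower.

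Of 20 dedifferentiation and mesenchymal genes tested (of 28 listed), 10 were called higher in TAM, 5 by at least 2-fold, and 8 higher in M1, 2 by at least 2-fold. Plaur (chr7:24462484-24475968), the urokinase receptor, stood at 20.4, 19.6 and 22 CPM in M1 and 54.1, 56.8 and 48.2 CPM in TAM (1.36 ± 0.07, adjusted p = 1.0e-25). Vim (chr2:13573927-13582826), the intermediate filament used as a mesenchymal marker, went the opposite way, at 2113, 2183 and 2162 CPM in M1 and 574, 630.3 and 578 CPM in TAM. Zeb1, a repressor of epithelial genes, rose by 3.11 ± 0.54 but from a low level, 0.124 ± 0.108 CPM to 1.12 ± 0.225 CPM.

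Genes of rapid signalling responses were higher in TAM. Of 19 immediate early genes tested, 15 were called higher in TAM and 11 by at least 2-fold (median 1.16). Myc (chr15:61985391-61990374), the growth factor-responsive oncogene, stood at 43.6, 49.3 and 50.2 CPM in M1 and 190.3, 205 and 197 CPM in TAM (2.05 ± 0.05, adjusted p = 4.8e-42), Klf4 (chr4:55527143-55532466) at 2.39 ± 0.205 CPM and 19.8 ± 1.10 CPM, and Egr1 at 0.398 ± 0.159 CPM and 3.34 ± 0.166 CPM. Fos was not called (0.12), and Ier3 (-0.26) and the mRNA-decay factor Zfp36 (-0.45) were lower in TAM. Of 16 ERK feedback and EGF family genes tested, 13 were called higher in TAM. The ERK phosphatase Dusp4 (chr8:34807297-34819894) stood at 57.4, 59.8 and 60.9 CPM in M1 and 155, 156 and 159 CPM in TAM, and the inhibitor Spry4 rose by 4.01 ± 0.34 from 0.226 ± 0.153 CPM. The receptor gene Erbb3 was lower in TAM (-1.25). Tgfa was at the margin (adjusted p = 0.050), its groups overlapped, and it lost its call under several settings.

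Of 13 TGF-beta, BMP and YAP targets tested, 10 were called higher in TAM, 6 by at least 2-fold. Id1 (chr2:152736251-152737410), an inhibitor of differentiation factors, stood at 2.36, 2.03 and 2.69 CPM in M1 and 20.3, 19.7 and 22.9 CPM in TAM, and the YAP target Ccn1 at 52.7 ± 8.66 and 384 ± 21.7 CPM. Thbs1 (chr2:118111876-118127133), a matrix protein that activates latent TGF-beta, went strongly the other way, at 98.4, 109.6 and 106 CPM in M1 and 3.72, 5.42 and 4.43 CPM in TAM (-4.53 ± 0.08, adjusted p = 7.0e-47).

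Glycolysis and hypoxia genes moved in both directions. Of 26 tested, 17 were called higher in M1 (5 by at least 2-fold) and 6 higher in TAM (4 by at least 2-fold). Pkm (chr9:59656368-59679375), the last enzyme of glycolysis, stood at 3098, 3104 and 3060 CPM in M1 and 1321, 1383 and 1292 CPM in TAM, and Ldha, which makes lactate, differed by -1.27, while the hexokinase Hk2 did not pass the test (-0.02). Vegfa (chr17:46016993-46032369), the angiogenic factor, stood at 61.9, 57.6 and 62.4 CPM in M1 and 387, 379 and 390.2 CPM in TAM (2.67 ± 0.04, adjusted p = 2.5e-52), and Ndrg1 rose by 1.78, while the HIF target Pdk1 was lower (-1.54). Other hypoxia genes were also lower in TAM, among them Egln3 (-0.93), Bnip3 (-0.86) and Car9 (-0.58). Scaled over 12 libraries, Egln3 was low, at 2.03 ± 0.400 CPM and 1.07 ± 0.477 CPM. On that scale Car9 stood at 3.49, 2.15 and 4.02 CPM in M1 and 2.25, 2.39 and 1.86 CPM in TAM, so its groups overlapped. None of 25 nuclear respiratory chain genes differed by 2-fold, with 7 called higher in TAM and 13 in M1. Of 12 mitochondrially encoded genes tested, 6 were called higher in TAM, none in M1 and none by 2-fold, led in counts by mt-Cytb at 2413 ± 220.0 CPM in M1 and 4172 ± 169.7 CPM in TAM. All 8 small nucleolar RNA host genes tested were called higher in TAM, 6 by at least 2-fold, with Snhg1 (chr19:8723475-8726443) at 18.5, 18.9 and 17.6 CPM in M1 and 132, 138 and 131 CPM in TAM. Of 4 metallothionein and zinc export genes, Slc30a1, a zinc exporter (1.11), and Mtf1 (0.38) were called higher in TAM. Mt1 was called lower (-0.14, with overlapping groups), and lost its call when M1 replicate 2 was left out.

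Some of the largest differences lay outside the lists. On the M1 side, Serpina3f (chr12:104214544-104221129), a serine protease inhibitor, had 6806 counts in M1 and 0 in TAM, at least 2372-fold higher, and Apol10b (chr15:77583819-77596125) had 3168 against 0, at least 1104-fold higher. Apol6 (chr15:77044729-77057106), of the same apolipoprotein L family, had 27722 counts against 2. On the TAM side, P2rx3 (chr2:84998583-85037462), an ATP-gated channel of sensory neurons, stood at 0.525, 0.581 and 0.249 CPM in M1 and 34.2, 34.4 and 34.1 CPM in TAM (6.25 ± 0.16, adjusted p = 3.8e-42). Cox6a2 (chr7:128205435-128206387), the muscle form of a cytochrome oxidase subunit, stood at 0.158, 0.116 and 0 CPM and 15.4, 16 and 14.5 CPM, and Atp2a3 (chr11:72961169-72993044), a calcium pump of the endoplasmic reticulum, at 0.0525, 0.233 and 0.0498 CPM and 13.5, 13.4 and 11.9 CPM. Hrk (chr5:118164648-118189478), a BH3-only death activator, had 3 counts in M1 and 246 in TAM, a ratio of 78.4 with a 95% counting interval of 26.5 to 383. Gpnmb (chr6:49036546-49070929), a melanosome glycoprotein, differed by 0.36 on the log2 scale and yet had the fourth largest rise in absolute level, from 5901 ± 80.7 CPM to 7588 ± 112 CPM.

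Levels were also set beside the M0 background. These levels come from a scaling over all 12 libraries and are a description. M0 is given as a median because M0 replicate 1 stood apart, with 8.19% of its counts on ribosomal protein genes. The matching share over all tested genes was not computed, so whether a list's count exceeds that background was not tested. M1 lay at least 2-fold above M0 for all 10 guanylate-binding proteins and 25 of 25 antiviral genes, and TAM did for 1 and 7 of them. TAM lay at least 2-fold above M0 for 16 of 19 ATF4 and CHOP genes and M1 for 4. TAM lay at least 2-fold below M0 for 19 of 20 cholesterol enzymes, 31 of 36 replication genes and 19 of 30 mitosis genes, and M1 for 0, 1 and 0. In other lists both media had genes at least 2-fold above M0. M1 had 11 and TAM 8 of 15 chemokines and cytokines, M1 8 and TAM 4 of 13 NF-kB genes, M1 7 and TAM 6 of 19 cell death genes, and M1 5 and TAM 9 of 20 dedifferentiation and mesenchymal genes. Some interferon-responsive genes were above background in both media. Cxcl10 had medians of 10.5 CPM in M0, 8.98 in M2, 190.7 in TAM and 2041 in M1, Isg15 of 2.83, 3.23, 15.1 and 490.7 CPM, and Cd74 of 0.144, 0, 12.1 and 73.5 CPM in the same order. B2m in TAM (187 CPM) lay near its M0 level (160.0 CPM). Thbs1 was low in M0 (9.58 CPM) and TAM (4.42 CPM) and high in M1 (106 CPM), and Vegfa was near 60 to 80 CPM outside TAM (63.8 in M0, 76.4 in M2, 61.4 in M1 and 386 in TAM).

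**Figure D4:**
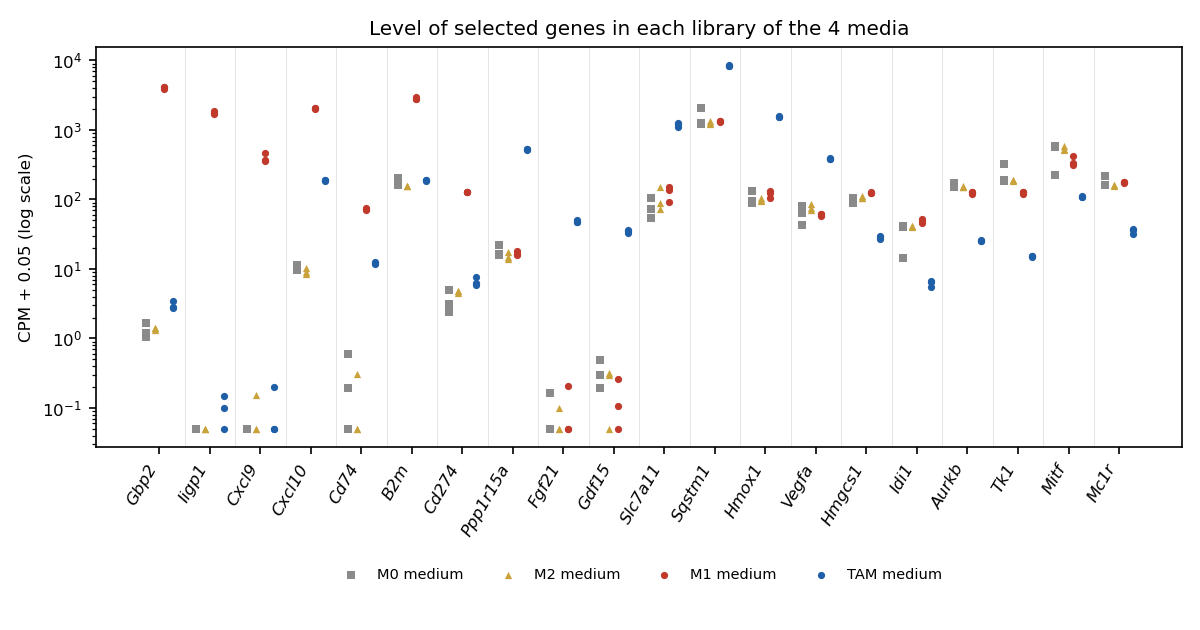
Points give the level of 20 genes in each library (CPM plus 0.05, log scale, scaled over 12 libraries), with 3 libraries for each of the M0, M2, M1 and TAM media. M1 stands apart from the other media for Gbp2, Iigp1, Cxcl9, B2m and Cd274, and TAM stands apart for Ppp1r15a, Fgf21, Gdf15, Hmox1, Sqstm1, Vegfa, Hmgcs1, Idi1, Aurkb and Mc1r, while Cxcl10 and Cd74 are above M0 in both.

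Promoter windows were available for 468 of the 644 listed genes in the counts table. Each motif was searched on both strands, and matches of different motifs may overlap. The interferon-stimulated response element GAAANNGAAA was found in 22 of 41 windows (53.7%) of genes higher in M1 from the interferon signalling, GTPase and antiviral lists, against 3.49% of all 27025 windows and 3.07% of the 9931 windows of tested genes. The gamma-activated site TTCNNNGAA, which STAT dimers bind, was found in 16 of the 41 (39%, against 8.47% and 6.80%). Bst2, Gbp5, Gbp7, Igtp, Tgtp1 and Tgtp2 were among the genes with both. In MHC class I genes the numbers were 5 and 2 of 16. The ATF4 element TGATGNAA was found in 5 of 16 windows of ATF4 and CHOP genes higher in TAM (31.2%) and in 10 of 27 of amino acid genes (37%), against 4.06% and 2.25%. The sterol regulatory element was found in 1 of 29 windows (3.45%, against 0.522% and 0.524%). The cell cycle homology region TTTGAA was found in 16 of 23 mitosis genes (69.6%, against 18.1% and 11.9%) and the E2F site, one of the 8-mers TTTCCCGC, TTTCGCGC, TTTGCCGC and TTTGGCGC, in 11 of 29 replication genes (37.9%, against 2.32% and 4.21%). The AP-1 site TGACTCA was found in none of 20 windows of immediate early, ERK and EGF genes (5.17% and 3.42%). The M-box TCATGTG was found in 2 of 5 windows of melanocyte genes higher in M1 and in 4 of 6 of those higher in TAM (3.74% and 2.10%). A match says that the letters are there, not that a factor binds.

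**Figure D5:**
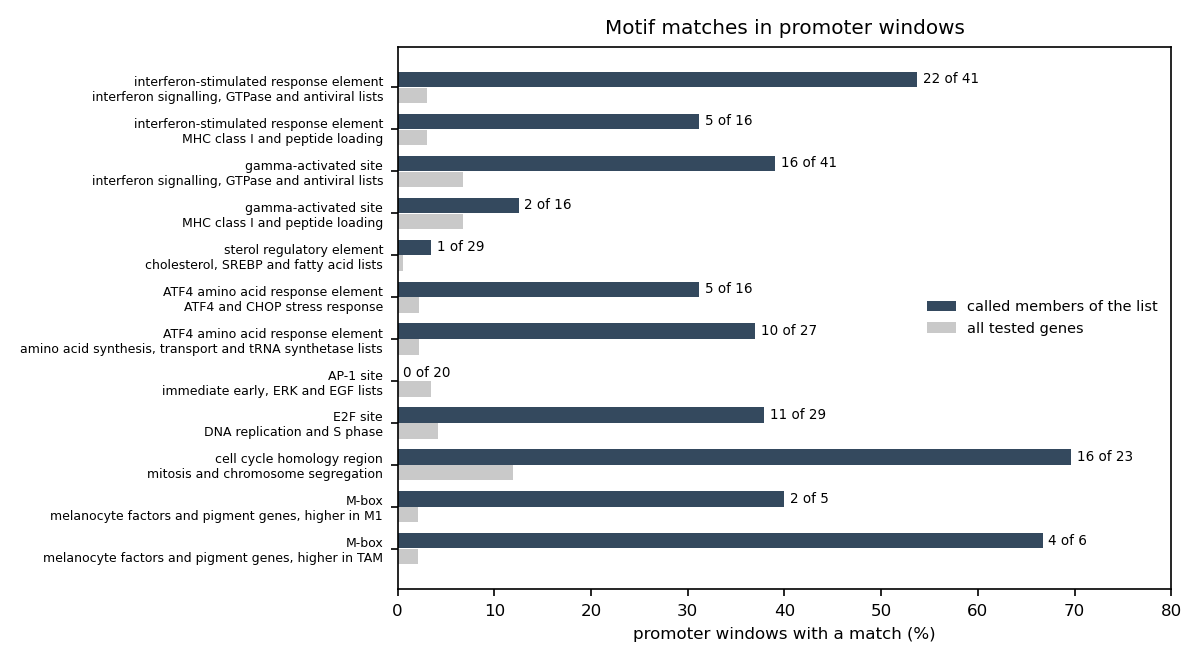
Bars give the percent of promoter windows with a motif match, for called members of each list (dark, with the number of windows) and for all 9931 tested genes with a window (light). The dark bar is longer than the light one for every motif except the AP-1 site, which no listed window held.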

How the data were processed

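The authors deposited raw read counts per Ensembl gene, with 1 column for each library. HISAT2 2.0 and the build mm10 are named per the submitters' processing notes. Which counter, annotation, strand setting and filters were used is not given in the sources used here. Per the labels' protocols, RNA was extracted with Trizol for Illumina mRNA libraries. Groups came from the treatment labels, which also settled a misspelt title of TAM replicate 2. Symbols and coordinates are from GENCODE M21 (GRCm38), which matched 55141 of 55487 genes.

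The 6 libraries alone were filtered with filterByExpr, scaled by TMM and tested in R 4.3.3 with edgeR 4.0.16 (quasi-likelihood, robust, Benjamini-Hochberg over 14077 genes). The depth of 17266441 to 20075551 counts per library limits precision, and counting intervals (95%, exact) and the floor of 3 counts over a group cover counting error alone, since reads lacked molecular identifiers and are not independent molecules. SE is the absolute log2 change divided by the square root of its F statistic. Alternatives were other scalings, filters, DESeq2 1.42.0, limma-voom (limma 3.58.1), a 2-fold test, the replicate block, all 12 libraries and leaving out each library. A further fit used the 11 libraries without M0 replicate 1. The script was tested on simulated counts.

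The naming rules picked the 12 largest rises and falls among called genes of at least 1 CPM and the 6 largest differences in CPM each way. They also picked up to 4 members of each list with the smallest adjusted p and up to 2 against its direction. Check genes and genes whose promoters are printed were added. Not every gene picked, in or outside the lists, is reported singly here. Other listed genes were named to describe their list, after their values were seen. The comparison and its 35 lists (645 genes) were chosen with earlier results of these data known. Some listed genes are counted with their list and not reported singly here.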

Additional observations from a re-analysis of the deposited data

How the results depend on the processing

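The alternatives for single genes were run on 197 tested genes picked by size of difference, by rank in a list or as checks. None of these reversed direction under any of the 16 alternatives, and 184 never lost a call where they were tested. Genes named only to describe their list were not among the 197. Fitting all 12 libraries together gave 6279 genes called, 2886 higher in TAM and 3393 higher in M1, of 14591 tested; of the 2833 genes called at 2-fold, 2670 stayed called. It took the call from 13 of the 197 genes, among them Ifngr1, Tyr and Abca1. Without M0 replicate 1, a fit of the other 11 libraries gave 10489 genes called, 4843 higher in TAM and 5646 higher in M1. In that fit 1 of the 197 genes lost its call. Testing against a change of 2-fold itself (glmTreat) left 1873 genes, 749 of them higher in TAM. Leaving out 1 library at a time gave 9866 to 10173 genes called, 4825 to 5029 higher in TAM and 5007 to 5144 higher in M1, and 2914 to 2999 at 2-fold, 1251 to 1354 higher in TAM and 1630 to 1677 higher in M1. The other settings gave 9683 to 10598 genes called. The replicate block gave 10175 genes called, 5057 higher in TAM and 5118 higher in M1. Deviations of same-numbered libraries from their group means had correlations of 0.006, -0.054 and -0.087 over 9681 genes. Pairs with different numbers lay between -0.035 and 0.106. With 3 libraries in each group, these correlations cannot decide whether same-numbered libraries shared a culture or batch. The other scalings (RLE size factors, library totals and upper-quartile factors) gave shares of calls higher in TAM between 49.28% and 52.03%, and fitting all 12 libraries gave 45.96%. Tgfa lost its call under 9 alternatives and Mt1 and Ier3 under 2 each. Depth limits genes with 3 counts or fewer in a group, whose fitted changes are no bound.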

Other observations

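Genes of the circadian clock were higher in TAM than in M1 medium. This list was chosen after its values were seen and is given as a description. Of 19 genes, 18 were tested, 17 were called higher in TAM (11 by at least 2-fold), and Bhlhe40 was called higher in M1 (-0.78). The median log2 change was 1.23. Per2 (chr1:91415982-91459324), a repressor of the clock, stood at 0.158, 0.0581 and 0.0995 CPM in the M1 libraries and at 15.1, 14 and 14.7 CPM in the TAM libraries, a log2 change of 7.01 ± 0.26 (SE, adjusted p = 1.5e-33 by edgeR's quasi-likelihood test). Its M0 median, scaled over 12 libraries, was 0.192 CPM. The other repressors Per1 and Cry1 were higher by 2.11 ± 0.06 and 2.07 ± 0.08, and Per1 had 26.9, 26.8 and 26.9 CPM in M1 and 119, 111 and 116 CPM in TAM. The activators Arntl (1.36) and Clock (0.59), their repressor Nr1d1 (2.29) and the output regulator Nfil3 (2.09) were higher too, while Per3 differed least (0.43 ± 0.19, adjusted p = 0.037). The labels give no clock time for the harvest of either group.

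Chaperones and proteases of the mitochondrial matrix and inner membrane, a list also chosen after its values were seen, were less uniform. Of 12 genes, 6 were called higher in TAM, 2 higher in M1 and 4 were not called, with a median of 0.23. Over all genes tested, 73.2% were called, 36.4% higher in TAM and 36.8% higher in M1. The list as a whole was not tested against these shares. The chaperones Hspa9 (1.47), Hspe1 (1.05), Hspd1 (0.57) and Clpx (0.56) and the proteases Lonp1 (1.02) and Afg3l2 (0.31) were higher in TAM. Lonp1 stood at 372, 320 and 375 CPM in M1 and 706, 753 and 704 CPM in TAM. Trap1 (-0.48) and Spg7 (-0.19) were lower, and the peptidase Clpp was not called (-0.02, adjusted p = 0.78).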
